A study of Mus musculus with 12 samples.

Results

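Livers of mice carrying an AEG-1 transgene were compared with wild-type livers by RNA sequencing. The groups were taken from the genotype labels, and they hold 6 of the 12 libraries of the series, 3 labelled AEG1 and 3 labelled WT. All mice were untreated adults bred by crossing heterozygous Alb/AEG-1 with heterozygous Alb/c-Myc animals, so WT and AEG1 mice are offspring that did not inherit the Myc transgene. The Alb promoter is the albumin promoter, which is active in hepatocytes, so the transgene is directed to hepatocytes while the RNA comes from whole liver. The remaining 6 libraries, 3 from MYC transgenic mice (MYC) and 3 from mice with both transgenes (AEG1_MYC), serve only to read the AEG1 difference on a second background. Per the design text each group is 3 mice. The labels do not state the mice's sex, exact age, litter or hour of collection, and replicate numbers below follow accession order and only name a library.

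Mtdh encodes AEG-1 (astrocyte elevated gene-1), a largely membrane-associated, RNA-binding protein that is abundant in many liver tumours. In hepatocytes it has been studied for its part in NF-κB signalling, for binding the coactivator-binding surface of the retinoid X receptor, for the RNA-induced silencing complex together with Snd1, and for lipid accumulation. Interferons act through STAT and IRF factors, which switch on antiviral effectors, guanylate-binding GTPases and antigen presentation through short promoter elements.

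Endogenous Mtdh overlapped between the groups. It stood at 95.4, 96.9 and 94.7 CPM (read counts scaled for library size by TMM) in WT replicates 1 to 3 and at 94.1, 97.3 and 88.5 CPM in AEG1 replicates 1 to 3, a log2 fold change of -0.04 ± 0.08 (SE). Because the labels leave the transgene's species unstated, its reads need not align to the mouse gene, and this level is no check of the AEG1 label. The groups also overlapped for Snd1 (-0.14 ± 0.10), for the glutamate transporter Slc1a2, a reported AEG-1 target (-0.56 ± 0.37), and for Myc (0.30 ± 0.30). Slc1a2 was at 289, 109 and 132 CPM in WT replicates 1 to 3 and 102 to 143 CPM in AEG1, so WT replicate 1 stood apart. With the Myc transgene Slc1a2 was at 87.6 to 98.1 CPM in MYC and 742 to 2292 CPM in AEG1_MYC livers. That difference was 3.95 ± 0.47 (edgeR over 12 libraries, adjusted p = 0.0103).

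Libraries held 21931197 to 40552316 reads in genes. Spearman correlations of log2 CPM with the other 5 libraries averaged 0.978 for AEG1 replicate 3 and 0.982 to 0.985 for the rest. On the first principal component, which held 32.9% of the variance, AEG1 replicate 3 lay at -41.2 and AEG1 replicates 1 and 2 at 16.8 and 18.7. WT replicates 1 to 3 lay at -12.9, 28.1 and -9.35, so neither group is compact. WT replicate 2 correlated more with AEG1 replicates 1 and 2 (0.9876 and 0.9865) than with WT replicates 1 and 3 (0.982 and 0.9809). Results that lean on AEG1 replicate 3 are given without it. All 6 libraries held Y-linked transcripts (Ddx3y at 110.1 CPM or more), and Xist did not exceed 0.748 CPM. Albumin took 7.63% to 9.02% of reads in WT and 6.18% to 6.85% in AEG1 libraries.

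At the level of single genes, the 2 count-based tests gave different answers. Of 22609 genes, 13166 had enough reads to be tested. edgeR's quasi-likelihood test called 0 of them (0%) at an adjusted p under 0.05, with a lowest adjusted p of 0.230. Without adjustment 705 genes (5.35%) had p under 0.05, 358 higher (2.72%) and 347 lower (2.64%) in AEG1. DESeq2 called 44 genes, 22 higher and 22 lower, and limma called 0. All AEG1 libraries lay beyond all WT libraries in 1413 genes (10.7%), 715 higher (5.43%) and 698 lower (5.3%). Genes below are therefore described by their values, and the word "called" is used of a tool's adjusted p only.

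The 12 higher and 12 lower genes with the lowest unadjusted p, among those with non-overlapping groups and a mean of at least 1 CPM, are shown in the plot of CPM by library. DESeq2 called all 24 of them and edgeR none. The other 20 genes that DESeq2 called include Igtp, Elovl6, Acaca, Itih2, Mup5 and Onecut1, which belong to gene lists described here.

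**Figure D1:**
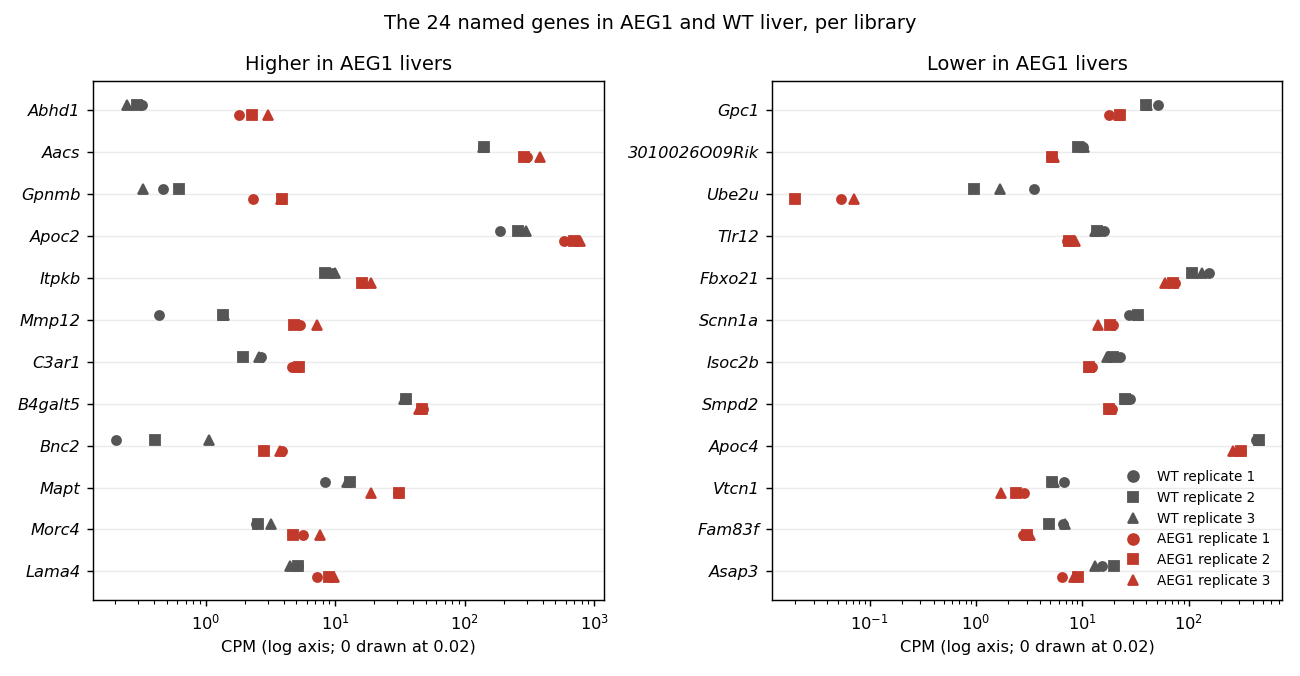
CPM in each library (log axis) for the 12 genes higher and the 12 lower in AEG1 livers, grey for WT and red for AEG1, with a marker shape per replicate. In every one of the 24 genes the 3 red points lie to one side of the 3 grey points; Ube2u is at 0 in AEG1 replicate 2, drawn at 0.02.

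Among the 24 genes, Aacs, acetoacetyl-CoA synthetase, which turns the ketone body acetoacetate into a lipid precursor, was at 137, 142 and 139 CPM in WT and at 303, 287 and 381 CPM in AEG1 livers. The groups did not overlap, and the log2 fold change was 1.22 ± 0.13 (2.33-fold, edgeR adjusted p = 0.230, DESeq2 adjusted p = 4.24e-12). Apoc2, the apolipoprotein that activates lipoprotein lipase, was at 188, 256 and 297 CPM in WT and at 584, 695 and 781 CPM in AEG1 livers, 2.78-fold higher (log2 1.48 ± 0.20, edgeR adjusted p = 0.439). Its neighbour Apoc4, another apolipoprotein, went the other way, at 429, 457 and 461 CPM in WT and 313, 311 and 263 CPM in AEG1 livers (-0.60 ± 0.11, adjusted p = 0.760). Apoc2 and Apoc4 both overlap the annotated readthrough gene Gm44805 (RefSeq, GRCm38.p6), so the split of reads among these genes is uncertain. Smpd2, a sphingomyelin-cleaving enzyme, was lower at -0.51 ± 0.09, and B4galt5, which makes lactosylceramide, was higher at 0.42 ± 0.08.

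Gpnmb, a glycoprotein of lipid-laden macrophages, was at 0.466, 0.621 and 0.325 CPM in WT and at 2.32, 3.88 and 3.82 CPM in AEG1 livers (2.81 ± 0.34, adjusted p = 0.396). Mmp12, macrophage elastase, was at 0.437, 1.35 and 1.38 CPM in WT and at 5.34, 4.77 and 7.26 CPM in AEG1 livers (2.48 ± 0.43, adjusted p = 0.760). C3ar1, the receptor for the complement fragment C3a, was at 2.65, 1.94 and 2.56 CPM in WT and at 4.60, 5.24 and 5.04 CPM in AEG1 livers (1.05 ± 0.19). Beside these, 10 of 17 tested Kupffer-cell and macrophage markers were higher and 7 lower (median 0.12). Without AEG1 replicate 3 the median was -0.18 (4 higher, 13 lower), and without WT replicate 1 it was 0.52 (14 higher, 3 lower). The markers' summed level was 436 to 1006 CPM in WT and 631 to 923 CPM in AEG1 livers, with none of the list at 0 throughout. Lyz2, lysozyme of myeloid cells, was higher without overlap (0.75 ± 0.23), while the scavenger receptors Marco (-4.24 ± 1.64) and Cd163 (-1.91 ± 0.74) were lower, with 25.1 and 23.7 CPM in WT replicate 1 above every other library. The part of macrophage number in these values was not tested, and in bulk tissue more cells of a type cannot be told apart from more RNA per cell.

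Among the remaining higher genes, Bnc2, the zinc finger protein basonuclin 2, was at 0.204, 0.402 and 1.06 CPM in WT and at 3.90, 2.81 and 3.75 CPM in AEG1 livers (2.70 ± 0.54, 6.48-fold, adjusted p = 0.832). Abhd1 was at 0.320, 0.292 and 0.244 CPM in WT and at 1.82, 2.29 and 3.03 CPM in AEG1 livers (3.03 ± 0.32), and it overlaps Preb in the annotation, so reads of the 2 genes may be mixed. Itpkb, an inositol trisphosphate kinase (0.88 ± 0.13), Mapt, which encodes tau (1.26 ± 0.25), Morc4 (1.15 ± 0.23) and Lama4, a laminin chain of vessel basement membranes (0.81 ± 0.17), complete the set.

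The lower genes were led by Gpc1, the cell-surface proteoglycan glypican-1, at 51.5, 39.5 and 40.9 CPM in WT and 17.8, 22.7 and 22.2 CPM in AEG1 livers (-1.07 ± 0.15, adjusted p = 0.439). It overlaps Ankmy1 and non-coding genes in the annotation. Ube2u, a ubiquitin-conjugating enzyme, was at 3.53, 0.950 and 1.67 CPM in WT and at 0.0534, 0 and 0.0717 CPM in AEG1 livers (-5.30 ± 0.77), a fold that rests on very few reads in the AEG1 group. Tlr12, a Toll-like receptor for profilin of protozoan parasites, was at 16.1, 13.8 and 13.1 CPM in WT and 7.24, 7.53 and 8.60 CPM in AEG1 livers (-0.88 ± 0.14, adjusted p = 0.568). Fbxo21, a ubiquitin ligase adaptor (-0.95 ± 0.15), Scnn1a, a subunit of the epithelial sodium channel (-0.86 ± 0.15), and Vtcn1, an inhibitory T cell ligand (-1.32 ± 0.24), were lower too. So were 3010026O09Rik (-0.92 ± 0.13), Isoc2b (-0.72 ± 0.13), Fam83f (-1.03 ± 0.19) and Asap3, an Arf GTPase activator (-1.03 ± 0.20).

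Interferon-response genes were lower in AEG1 than in WT livers across most of the list. Of 72 tested members 64 were lower, with a median log2 fold change of -0.51 against 0.003 over all genes. Unadjusted p was under 0.05 in 23 lower members, against 2.64% of all genes, and in 0 higher members. The groups did not overlap, with AEG1 lower, in 17 members against 5.3% of all genes, and edgeR called 0. By role, 29 of 30 antiviral effectors were lower (median -0.68), 11 of 13 interferon-induced GTPases (-0.62), 8 of 8 antigen-presentation genes (-0.45) and 5 of 6 nucleic acid sensors (-0.47). Of the other IRF factors 4 of 5 were lower (-0.36). Receptors, kinases and STATs, grouped with Irf9, were nearer 0, with 7 of 10 lower and a median of -0.12. The plot of interferon genes by role shows this spread.

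**Figure D2:**
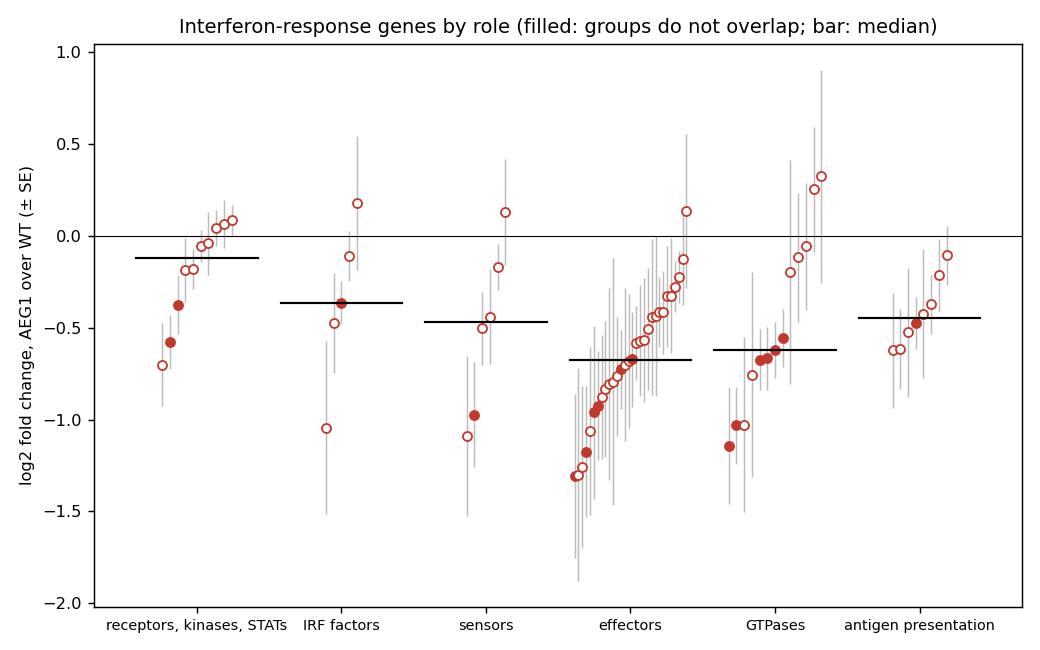
log2 fold change of AEG1 over WT (± SE) for the 72 tested interferon-response genes, in columns by role, with a black bar at each column's median. Filled points are members whose groups do not overlap. Nearly all points of the effector column lie below 0, and the column of receptors, kinases and STATs, which also holds Irf9, straddles 0.

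The 3 lowest p values of the list belonged to Igtp, Irgm2 and Irgm1, all interferon-induced GTPases. Igtp was at 106, 91.3 and 64.6 CPM in WT and 50.9, 36.1 and 41.2 CPM in AEG1 livers (-1.03 ± 0.21, edgeR adjusted p = 0.832, DESeq2 adjusted p = 0.00438). Irgm1 was at 109, 109 and 110.1 CPM in WT and 77.9, 76.8 and 50.8 CPM in AEG1 livers (-0.67 ± 0.17, adjusted p = 0.916). Irgm2 (-0.62 ± 0.15), Ifi47 (-0.67 ± 0.17), Gbp6 (-1.14 ± 0.32) and Iigp1 (-0.56 ± 0.16) were lower without overlap as well.

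Of the signalling genes, Irf9, a DNA-binding factor of interferon signalling, was at 64.0, 53.5 and 69.8 CPM in WT and 45.4, 45.4 and 34.9 CPM in AEG1 livers (-0.58 ± 0.15). The ubiquitin-like effector Isg15 was at 11.6, 6.39 and 18.4 CPM in WT and 5.42, 5.19 and 5.45 CPM in AEG1 livers (-1.18 ± 0.36). Ifit1, which binds foreign RNA caps, ranged from 14.6 to 45.3 CPM in WT and from 7.79 to 12.7 CPM in AEG1 livers (-1.31 ± 0.45). The sensor Dhx58 (-0.97 ± 0.29), the factor Irf1 (-0.36 ± 0.12), the immunoproteasome subunit Psmb10 (-0.48 ± 0.14) and the peptide transporter Tap1 (-0.62 ± 0.22) were also lower.

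By the median of the interferon list, WT replicate 2 stood with the AEG1 libraries, though not for members without overlap, such as Igtp and Irgm1. Measured from the WT mean, the list's median was 0.11, -0.45 and 0.26 in WT replicates 1 to 3 and -0.45, -0.49 and -0.33 in AEG1 replicates 1 to 3. Macrophage markers were also lowest in WT replicate 2 (436 CPM in sum) and highest in WT replicate 1 (1006 CPM), and their part in the interferon values was not tested. Leaving out each library in turn kept 60 to 69 members lower, with medians from -0.67 (without WT replicate 2) to -0.33 (without WT replicate 3). On the MYC background, which shares no library with this comparison, the same members had a median of -0.27 for AEG1_MYC minus MYC.

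Promoter windows from RefSeq (GRCm38.p6, 250 bases before to 50 after the start) were found for 52 of the 72 interferon members (58 windows, since a gene can have several). The interferon-stimulated response element, searched as GAAA, any 2 bases and GAAA again on either strand, stood in at least 1 window of 22 of these 52 genes, 42.3% (exact 95% interval 28.7% to 56.8%), against 3.99% of all 27025 genes with a window. Members with the element had a median of -0.54 (21 of 22 lower) and members without it -0.40 (26 of 30 lower). A match is a description of letters, not a measured binding site. Stretches with the element (every match in capitals, for Ifit1 as its complement TTTC) are printed for 5 lower members, Irgm1 and Isg15 reading from the minus strand of the genome and the others from the plus strand. They lie at chr11:58199492-58199555 (Igtp), chr11:58214883-58214952 (Irgm2), chr11:48871421-48871474 (Irgm1), chr4:156200845-156200914 (Isg15) and chr19:34640774-34640843 (Ifit1).
Igtp: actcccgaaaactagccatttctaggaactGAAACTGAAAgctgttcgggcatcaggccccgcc
Irgm2: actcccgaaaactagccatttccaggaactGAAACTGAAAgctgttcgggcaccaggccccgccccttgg
Irgm1: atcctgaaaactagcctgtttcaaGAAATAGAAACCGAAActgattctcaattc
Isg15: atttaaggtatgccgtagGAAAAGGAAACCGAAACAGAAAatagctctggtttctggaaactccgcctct
Ifit1: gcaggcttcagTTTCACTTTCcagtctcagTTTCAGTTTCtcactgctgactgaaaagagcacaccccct
The 2 matches of Irgm1 and the 3 of Isg15 overlap, and the 2 of Ifit1 lie apart. The Igtp and Irgm2 stretches share 62 of their first 64 bases and carry the same element, and the deposited counts were aligned to another build (mm9), so only names link these windows to the counts.

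Lipogenesis genes were higher in AEG1 livers mainly in replicates 2 and 3. Of 46 tested members 31 were higher, with a median of 0.22, and 3 higher members (2.72% of all genes) and 0 lower (2.64%) had an unadjusted p under 0.05. By role, 6 of 7 genes of carbon and NADPH supply were higher (median 0.31), 7 of 11 of fatty acid synthesis (0.36) and 6 of 7 of triglyceride synthesis (0.27), while droplet and uptake genes (8 of 13, 0.05) and transcription factors (4 of 8, -0.0008) were nearer 0. The plot of lipogenesis genes by library gives all members.

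**Figure D3:**
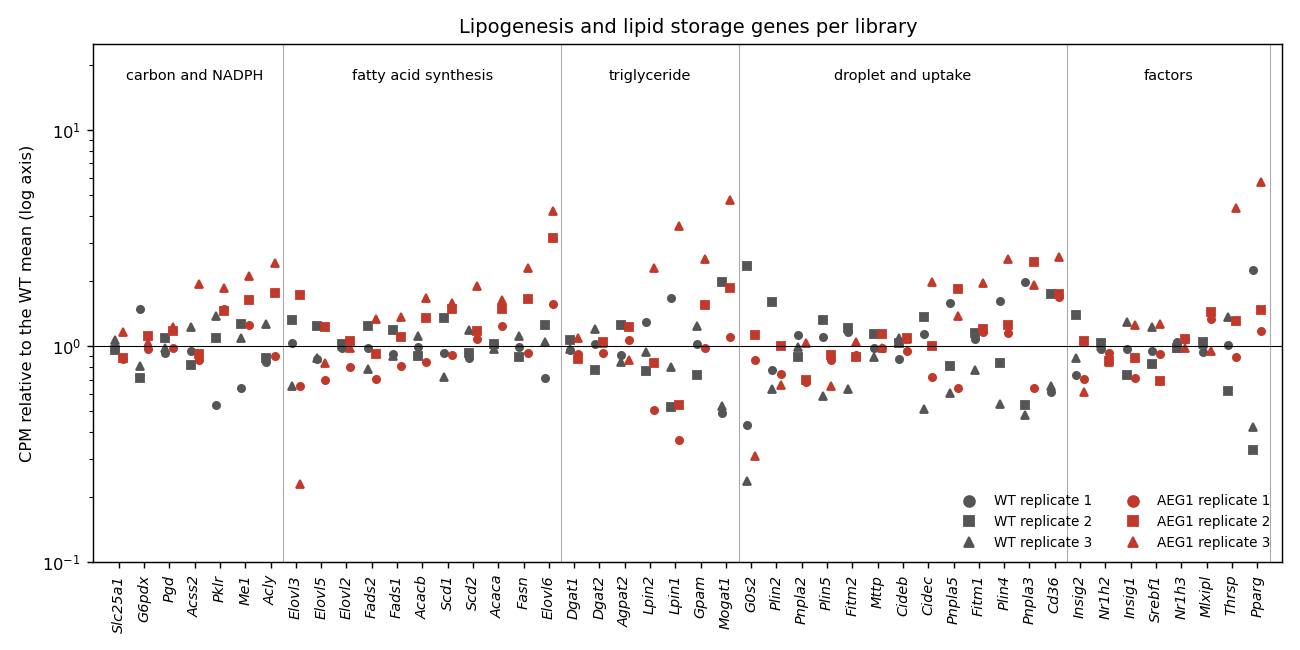
CPM of each lipogenesis and lipid storage gene relative to its WT mean (log axis), per library, grey for WT and red for AEG1, ordered by role. AEG1 replicate 3 (red triangles) is the highest library for many synthesis genes, while AEG1 replicate 1 (red circles) often lies near the line at 1.

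Elovl6, the elongase that turns palmitate into stearate, was at 152, 266 and 222 CPM in WT and 332, 673 and 903 CPM in AEG1 livers (1.58 ± 0.38, 2.98-fold, edgeR adjusted p = 0.916, DESeq2 adjusted p = 0.00583). Acaca, acetyl-CoA carboxylase and so the committed step of fatty acid synthesis, was at 75.3, 76.5 and 72.6 CPM in WT and 92.99, 111 and 122 CPM in AEG1 livers (0.54 ± 0.11). Neither overlapped between groups, whereas Fasn, fatty acid synthase, did: 1521, 1363 and 1702 CPM in WT and 1419, 2513 and 3522 CPM in AEG1 livers (0.70 ± 0.31). Acly, ATP citrate lyase (0.76 ± 0.36), Me1, malic enzyme (0.74 ± 0.29), and Cd36, the fatty acid translocase (1.01 ± 0.43), overlapped too.

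The list's median relative to the WT mean was -0.10, 0.24 and 0.45 in AEG1 replicates 1 to 3. Without AEG1 replicate 3 it was 0.08, with 26 of the members higher, and leaving out other libraries gave 0.13 to 0.29. AEG1 replicate 3 also had the highest clock score, the mean log2 CPM of night-phase minus morning-phase clock genes, at 2.16 against -1.48 and -3.16 in AEG1 replicates 1 and 2 and -1.93 to 0.63 in WT. The hour of collection is not stated, and its part in these values was not tested. On the MYC background the members' median was -0.06, and Fasn, Acaca, Acly and Me1 were lower there (-0.83, -0.74, -0.80 and -0.67 for AEG1_MYC minus MYC). Of 26 cholesterol synthesis genes 10 were higher and 16 lower (median -0.06), but 25 were lower without AEG1 replicate 3 (-0.31) and 18 higher without AEG1 replicate 1 (0.09). The regulator Srebf2 was at 85.3, 78.9 and 72.2 CPM in WT and 62.6, 63.9 and 61.7 CPM in AEG1 livers (-0.33 ± 0.09). Of 48 fatty acid oxidation genes 18 were higher and 30 lower (median -0.05, and -0.12 to 0.06 without 1 library) and 0 had an unadjusted p under 0.05. Cpt1a, the entry step of mitochondrial oxidation, was at -0.30 ± 0.19.

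Vessel genes were higher in AEG1 livers. Of 31 tested angiogenesis genes 25 were higher (median 0.21), 11 higher and 0 lower had an unadjusted p under 0.05 (2.72% and 2.64% of all genes), and 14 were higher without overlap (5.43% of all genes). Of 24 endothelial markers 19 were higher (median 0.24) and 9 had an unadjusted p under 0.05, all higher (2.72% of all genes). The lists share 5 genes, and of the 26 angiogenesis genes outside the endothelial list 8 were higher at an unadjusted p under 0.05. The VEGF receptors Kdr (55.5, 49.1 and 46.2 CPM in WT; 62.8, 64.6 and 77.2 CPM in AEG1; 0.44 ± 0.12), Flt4 (0.52 ± 0.15) and Flt1 (0.34 ± 0.12) were higher without overlap. So were Notch4 (0.82 ± 0.19), a Notch receptor of endothelium, Angpt2 (1.46 ± 0.34), a vessel-destabilising ligand, and the phosphatase Ptprb (0.36 ± 0.09). Vegfa, the main ligand of Kdr, was at 0.07 ± 0.09. Angpt2 lies inside Mcph1 in the annotation, so its reads may be mixed with those of Mcph1.

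The summed level of the endothelial markers was 574 to 721 CPM in WT and 731 to 826 CPM in AEG1 libraries, with none of the list at 0 throughout. The sinusoidal markers Fcgr2b (0.33 ± 0.09) and Oit3 (0.45 ± 0.12) were higher without overlap, while Lyve1, at 5.29, 16.3 and 14.8 CPM in the AEG1 replicates, overlapped WT (3.80 to 5.45 CPM). Without WT replicate 1 the list's median was 0.36 with 24 of 24 members higher, and without other libraries 0.17 to 0.27. Markers of stellate cells, the vitamin A-storing cells of the sinusoid, were higher in 15 of 17 (median 0.26). Lrat, which esterifies vitamin A, was at 21.7, 27.3 and 33.6 CPM in WT and 38.9, 43.3 and 52.3 CPM in AEG1 livers (0.70 ± 0.19), and Reln (0.39 ± 0.12), Dcn (0.41 ± 0.14) and Rgs5 (0.41 ± 0.16) were higher as well. Acta2, the actin of activated stellate cells and smooth muscle, was at 2.36, 4.20 and 13.2 CPM in WT and 3.02, 1.87 and 2.51 CPM in AEG1 livers. Stellate markers summed to 481 to 628 CPM in WT and 632 to 797 CPM in AEG1, their median without AEG1 replicate 3 was 0.08, and a change in cell makeup was not tested. On the MYC background the angiogenesis median was -0.13, the endothelial median -0.12 and the stellate median -0.38. Kdr (-0.32), Ptprb (-0.47), Flt1 (-0.18) and Oit3 (-0.31) were lower there without overlap (8.85% of all genes), as AEG1_MYC minus MYC. Flt4 (-0.35) and Fcgr2b (-0.22) were lower with overlap, and Notch4 (0.65), Angpt2 (1.89) and Lyve1 (0.52) were higher with overlap.

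Hepatocyte markers were 10 of 10 lower with a small median of -0.08 (summed level 100619 to 110032 CPM in WT and 79249 to 88605 CPM in AEG1). Alb, given below, made up most of that sum. Leaving out each library in turn gave 2 to 3 members higher and 7 to 8 lower. Alb was lower in every AEG1 library than in any WT library, at 62179.6, 70213 and 59841 CPM against 88678, 79672 and 81622 CPM in WT (-0.38 ± 0.15, adjusted p = 0.916). Of 27 secreted proteins 12 were higher and 15 lower (median -0.12), with 11 of 17 carriers higher (0.02) and 9 of 10 inhibitors lower (-0.27). Apoa1, the main HDL protein (-0.49 ± 0.17), Ahsg, fetuin-A (-0.42 ± 0.13), and Itih2, a hyaluronan-binding inhibitor (-0.36 ± 0.11), were lower without overlap. Of 27 coagulation genes 24 were lower (median -0.09). Of 32 acute-phase genes 24 were lower (-0.32, and -0.16 without WT replicate 1), with the lipopolysaccharide-binding Lbp (-0.44 ± 0.15), the metallothionein Mt1 (-0.70 ± 0.24) and Socs3, a feedback inhibitor of cytokine signalling (-0.43 ± 0.16), lower without overlap, and the oncostatin receptor Osmr higher (0.64 ± 0.23). On the MYC background the acute-phase median had the other sign, at 0.69. Lbp was there at 0.65 ± 0.37, Mt1 at 4.70 ± 1.09, Socs3 at 1.37 ± 0.29 and Osmr at 0.01 ± 0.31 (AEG1_MYC minus MYC).

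Pericentral hepatocyte genes, which respond to Wnt from the central vein, were lower in 28 of 35 (median -0.28), and all 11 Wnt targets among them were lower (-0.48). Notum, a secreted Wnt inhibitor and Wnt target, was at 52.4, 37.7 and 36.0 CPM in WT and 27.01, 29.2 and 21.3 CPM in AEG1 livers (-0.70 ± 0.19). The transporters Slc1a4 (-0.78 ± 0.24) and Slc22a3 (-0.78 ± 0.25) and the Wnt-induced factor Sp5 (-0.94 ± 0.36, groups overlapping) were lower too, while the glutathione transferase Gstm3 was higher without overlap (0.36 ± 0.14). WT replicate 1 weighed on this list: without it the median was -0.08 with 23 of 35 lower, and without other libraries it was -0.42 to -0.27. On the MYC background the median had the other sign, at 1.48. Periportal genes were mixed, with 10 of 27 higher (-0.06, and -0.21 to 0.01 without 1 library).

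The lists for NF-κB, the retinoid X receptor axis and AEG-1 partners had medians near 0. Of 36 NF-κB genes 24 were higher with a median of 0.04. The kinase Map3k14, which drives the non-canonical pathway, was higher (6.96, 9.57 and 8.50 CPM in WT; 14.7, 13.3 and 11.4 CPM in AEG1; 0.66 ± 0.17), and the target Csf1, a macrophage growth factor, was lower (-0.30 ± 0.10). Of 36 genes of the retinoid X receptor axis 18 were higher and 18 lower (0.007), with Rxrg lower (-0.38 ± 0.14) and Rarb (0.38 ± 0.16) and the bile acid receptor Nr1h4 (0.22 ± 0.09) higher, all without overlap. Of 28 partners and reported targets 14 were higher and 14 lower (-0.01), and Eif2c2, Argonaute-2 of the silencing complex, was the one with an unadjusted p under 0.05 (11.3, 10.3 and 12.8 CPM in WT; 19.8, 14.8 and 17.2 CPM in AEG1; 0.59 ± 0.15). Endoplasmic reticulum stress genes (16 of 42 higher, -0.03) and cell cycle genes (15 of 31 higher, -0.03) had medians near 0 that hung on single libraries. Without 1 library the stress median was -0.16 (without WT replicate 3) to 0.09 (without WT replicate 2), and the cell cycle median -0.30 (without AEG1 replicate 3) to 0.17 (without WT replicate 1). Of the cell cycle list, the G1/S genes E2f1 (0.59 ± 0.19) and Ccne2 (0.72 ± 0.28) were higher without overlap.

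The plot of list medians by library shows how each list sat in each liver.

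**Figure D4:**
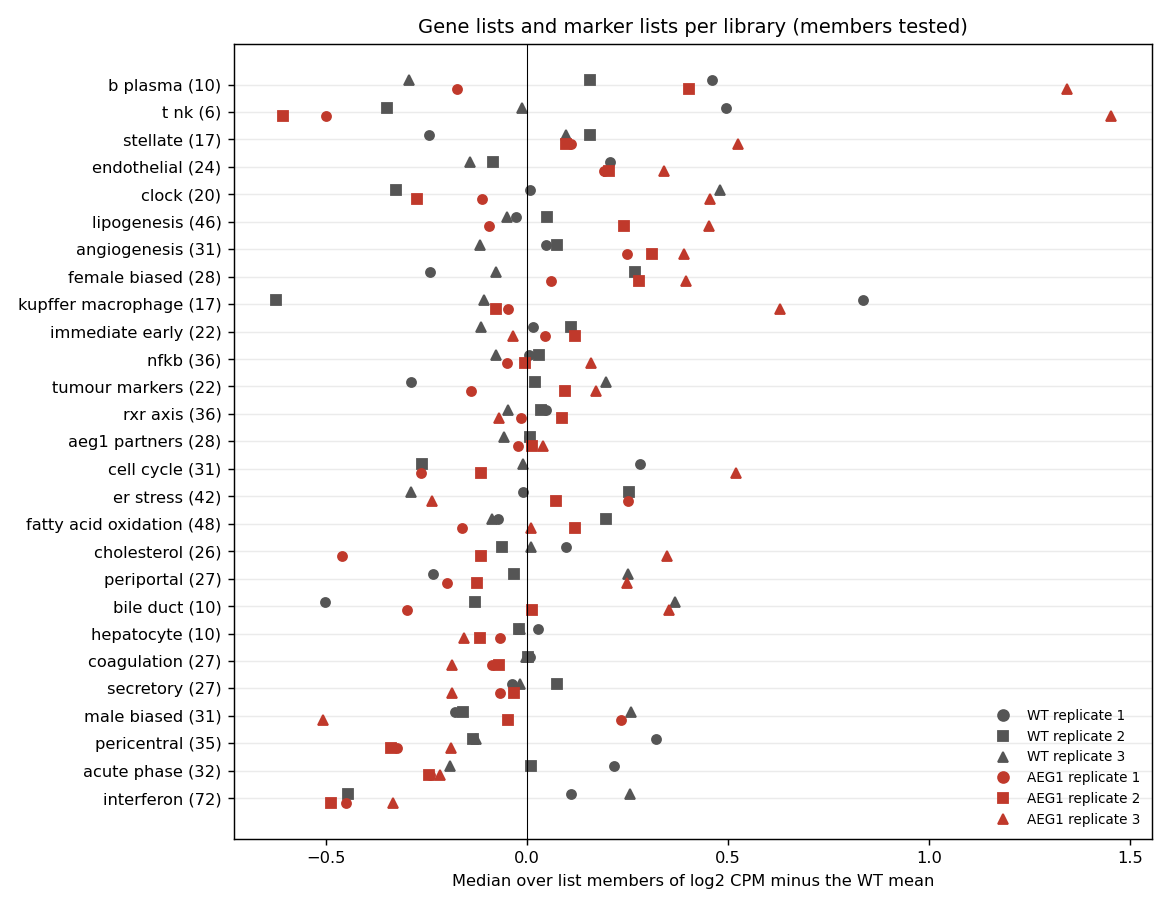
Median over the tested members of each list (number in brackets) of log2 CPM minus the WT mean, per library, grey for WT and red for AEG1, lists ordered by their log2 fold change. For angiogenesis the 3 AEG1 points all lie right of the WT points, WT replicate 2 lies among the AEG1 points for interferon, and AEG1 replicate 3 is far right for the lymphocyte lists.

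Lists that hung on single libraries included the B and plasma cell markers, 10 of 10 higher with a median of 0.69. Without AEG1 replicate 3 that median was -0.04, and the summed level was 9.10 to 12.3 CPM in WT and 8.87, 12.6 and 26.4 CPM in AEG1 replicates 1 to 3. T and NK cell markers summed to 4.57 to 9.06 CPM in WT and to 4.36, 3.79 and 14.3 CPM in the AEG1 replicates. Circadian clock genes had a median of 0.23, and of -0.32 without AEG1 replicate 3. Neutrophil markers summed to 1.79 to 8.13 CPM in WT and 1.87 to 3.49 CPM in AEG1, and bile duct markers to 83.7 to 116 and 109 to 144 CPM. Erythroid markers summed to 214 to 379 and 255 to 314 CPM with 4 globin genes listed at 0 in all 6 libraries. Alas2 made up most of that sum, at 168, 206 and 347 CPM in WT and 271, 240 and 216 CPM in AEG1. Pancreas and fat markers summed to 34.9 to 55.4 and 16.6 to 42.5 CPM with 6 of 13 at 0. Nearly all of that was Cela1, at 41.3, 34.7 and 55.0 CPM in WT and 42.3, 30.5 and 16.4 CPM in AEG1. Neither sum therefore measures blood, pancreas or fat content.

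The same 24 named genes were then read on the MYC background, as AEG1_MYC minus MYC, which rests on 6 other libraries. Of the 24, 14 kept their sign (6 of 12 higher, 8 of 12 lower), against 50.6% of all genes tested. Of AEG1_MYC and MYC libraries, 18.5% of all genes do not overlap, 9.64% higher and 8.85% lower. Among the 24, 7 had non-overlapping groups in the same direction as in AEG1 against WT: Gpnmb, Apoc2, Bnc2 and Morc4 higher, and Scnn1a, Apoc4 and Vtcn1 lower. Across all genes the fold changes of the comparisons were almost unrelated (Pearson r = 0.050, Spearman rho = 0.024, over genes, which are not independent replicates).

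**Figure D5:**
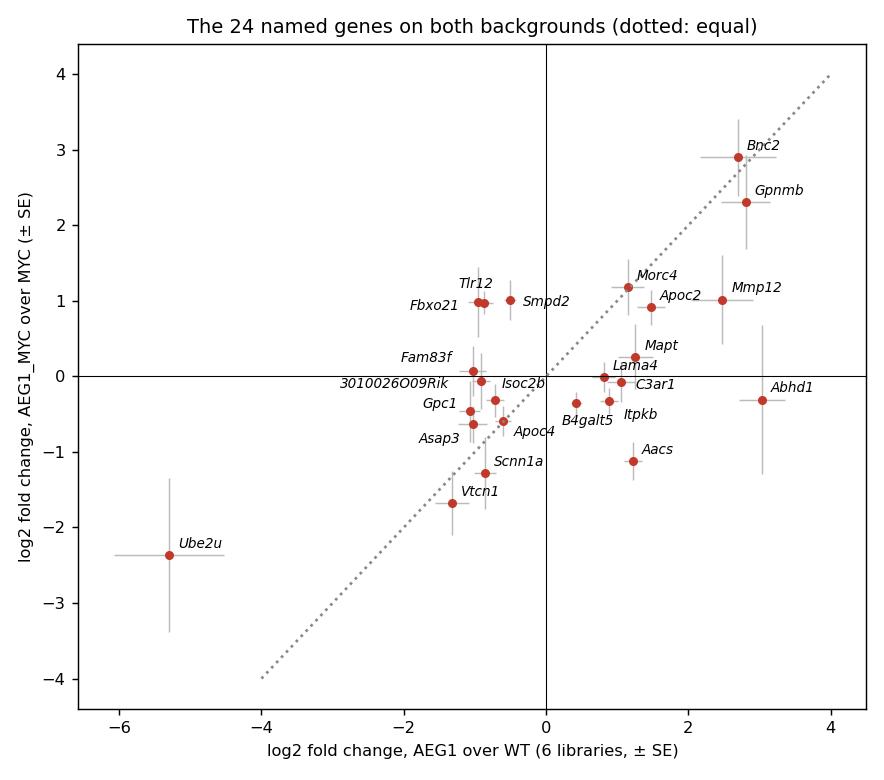
log2 fold change of the 24 named genes in AEG1 over WT (horizontal) and AEG1_MYC over MYC (vertical), with SE bars, the dotted line marking equal values. Bnc2, Gpnmb, Morc4 and Apoc2 lie at upper right, Vtcn1, Scnn1a and Apoc4 at lower left, and Aacs, Tlr12, Fbxo21 and Smpd2 in the quadrants of opposite sign.

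Bnc2 was at 0.587, 0.808 and 0.474 CPM in MYC and 3.37, 6.96 and 3.72 CPM in AEG1_MYC livers (2.90 ± 0.51, edgeR adjusted p = 0.0572), next to 2.70 ± 0.54 without Myc. Apoc2 was at 229.7, 247 and 228 CPM in MYC and 456, 302 and 572 CPM in AEG1_MYC livers (0.92 ± 0.23), and Apoc4 at 454, 454 and 536 CPM and 257, 259 and 441 CPM (-0.59 ± 0.20, next to -0.60 without Myc). Aacs took the opposite sign, at 193, 302 and 309.8 CPM in MYC and 81.5, 125 and 164 CPM in AEG1_MYC livers (-1.12 ± 0.25). The difference between backgrounds for Aacs was -2.33 (edgeR adjusted p = 0.0706). AEG1_MYC replicate 2 lies far from the other AEG1_MYC libraries for several of these genes, for example Scnn1a at 2.76 CPM against 14.0 and 18.2. The count of 14 was the same without AEG1_MYC replicate 2 and with replicate 3 as the lone AEG1_MYC library.

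A test of the difference between backgrounds over 12 libraries (the interaction, edgeR) called 3 of 13684 genes (0.0219%), and 1266 genes (9.25%) had an unadjusted p under 0.05. Among the 24, Tlr12 was called: it was at 16.8, 14.4 and 13.8 CPM in WT and 7.56, 7.81 and 9.04 CPM in AEG1 livers, but 10.1, 13.7 and 11.4 CPM in MYC and 19.6, 25.1 and 24.3 CPM in AEG1_MYC livers on the scale of all 12 libraries. The AEG1 difference was -0.88 without and 0.98 with the Myc transgene, an interaction of 1.86 ± 0.21 (adjusted p = 0.0221). Leaving out each of the 12 libraries in turn ended the Tlr12 call in 9 of 12 fits, with adjusted p up to 0.150 and a difference of 1.77 to 1.99. The call was kept without MYC replicate 2, AEG1_MYC replicate 1 or AEG1_MYC replicate 3.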

How the data were processed

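Liver RNA of 3 WT and 3 AEG1 mice was compared, with 3 MYC and 3 AEG1_MYC mice used only for the background comparison. Per the submitters' processing notes, base calling used CASAVA 1.8.2, alignment TopHat2 2.0.7 to mm9, and counting HTSeq; the HTSeq version, annotation and strand setting are not given in the sources used here. The authors deposited raw read counts per gene. Summary rows were left out of library sizes and tests; no-feature reads were 11.5% to 13.4% and ambiguous reads 0.635% to 0.672% of uniquely aligned reads, and alignments at several places 46.6% to 58.0% of all values. Reads of near-identical copies (Mup, Cyp, Saa, Orm, Gstm and ribosomal protein genes) and of overlapping or antisense genes are therefore uncertain.

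Counts were tested with edgeR 4.0.16 in R 4.3.3 (filterByExpr, TMM, robust quasi-likelihood, Benjamini-Hochberg over all 13166 genes tested, two-sided). The main fit used the 6 libraries, because an earlier analysis of all 12 found AEG1_MYC libraries far from the rest. Fold changes had a median SE of 0.174 (log2). Alternatives were all 12 or 9 libraries, RLE and upper quartile scaling, no filter, a CPM filter, no robust step, DESeq2 1.42.0, limma 3.58.1 (voom with quality weights), a clock score covariate, and leaving out each library. Leaving out AEG1_MYC libraries for the sign count, and each library for Tlr12, Nkd1 and Gm106, was chosen after seeing the data. The edgeR steps were tested on simulated data.

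Named genes are the 12 higher and 12 lower genes by unadjusted p with mean CPM of at least 1 and no overlap, up to 5 members per list by p, Mtdh, Myc, Snd1, Slc1a2, Bnc2 and Elovl6, and the 3 lowest p of the interaction. Gbp6, Iigp1, Isg15, Ifit1, Dhx58, Irf1, Psmb10, Tap1, Fasn, Acly, Vegfa and Dio1 were added after their values were seen. Members and lists were chosen with earlier results of these data known. Some genes are not reported here.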

Additional observations from a re-analysis of the deposited data

Results flagged for a closer look

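In 3 genes the AEG1 difference on the MYC background differed from that on the WT background by edgeR's interaction test over 12 libraries. Nkd1, an inhibitor of Wnt signalling, stood at 5.55 to 7.14 CPM in WT, 5.68 to 5.77 CPM in AEG1, 4.32 to 5.27 CPM in MYC and 59.9, 83.9 and 66.2 CPM in AEG1_MYC livers, a difference of 4.02 ± 0.21 (log2, adjusted p = 1.95e-05). Tlr12 differed by 1.86 ± 0.21 (adjusted p = 0.0221), lower in all 3 AEG1 livers than in any WT liver and higher in all 3 AEG1_MYC livers than in any MYC liver. Without 1 library at a time the Tlr12 difference was 1.77 to 1.99 with adjusted p from 0.0152 to 0.150, and the call ended in 9 of 12 fits. Gm106 differed by 4.65 ± 0.60 (adjusted p = 0.0476), at 0.214 to 0.383 CPM in WT, AEG1 and MYC libraries and 3.72 CPM or more in every AEG1_MYC liver. Its call ended in 11 of 12 fits without 1 library (difference 4.37 to 4.97, adjusted p from 0.00258 to 0.1602), remaining without AEG1_MYC replicate 3, while the Nkd1 call was kept in 12 of 12 (3.87 to 4.13, adjusted p from 2.17e-05 to 0.000369).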

How the results depend on the processing

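No paired analysis was possible because the labels give the mice numbers of their own and no shared replicate number. The count of called genes was 0 in edgeR and in the 12-library (lowest adjusted p 0.836, 536 genes under unadjusted 0.05), 9-library, RLE, upper quartile, unfiltered, CPM-filtered, non-robust, limma and clock-score fits, and 44 with DESeq2. Leaving out each library gave 0 to 1 calls, the 1 (Rps3a, without WT replicate 3) being a ribosomal protein gene with many copies. Genes at unadjusted p under 0.05 numbered 498 to 884 over the fits without 1 library. The interaction gave 3 calls, 152 with DESeq2, and 1 to 32 without single libraries; 32 without AEG1_MYC replicate 3 and 1 without any WT or AEG1 library, MYC replicate 1 or AEG1_MYC replicate 2.

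List medians moved by more than the replicate spread in some fits without 1 library. Their lowest and highest values were -0.0549 to 0.0844 for the retinoid X receptor axis, -0.193 to -0.0706 for secretory proteins, -0.418 to -0.0805 for pericentral, -0.10 to 0.50 for female-biased, -0.32 to 0.40 for clock, 0.0372 to 0.211 for immediate early, -0.152 to -0.0917 for hepatocyte, -0.0410 to 0.986 for B and plasma cell and -0.51 to 1.08 for T and NK cell genes. The T and NK median was 0.35 over 6 tested members and -0.47 with limma (2 higher, 4 lower). With the CPM filter only 1 member was left, at -0.54, so that value is not a median of the same genes. The fits without 1 library also tested differing numbers of T and NK members. The interferon motif share was 25% with GAAA on the gene's own strand alone and 17.3% with its complement TTTC alone. Of 107 genes checked over 1708 alternative values, 1 changed sign (Vegfa, -0.0041 to 0.0937 without 1 library, the lowest without AEG1 replicate 3) and 31 genes were called, all by DESeq2. With 3 livers a group and a median SE of 0.174, small differences were not detectable. Large ones were left uncalled by edgeR too, such as Abhd1 at 3.03 ± 0.32 (edgeR adjusted p = 0.230). The 0 calls therefore do not show that differences are absent.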

Other observations

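Genes biased to female mouse liver were higher in 17 of 28 tested members (median 0.13) and male-biased genes in 11 of 31 (-0.14), all 6 libraries holding Y-linked transcripts. Mup5, of the major urinary protein family, some members of which are near-identical, was at 116, 1.35 and 48.8 CPM in WT. It was at 1.79, 1.12 and 0.717 CPM in AEG1 livers, so WT replicate 2 lay among the AEG1 libraries. Serpina1e was at 1284, 263 and 867 CPM in WT and 232, 327 and 156 CPM in AEG1 livers, with WT replicate 2 again among the AEG1 libraries. Bcl6, a repressor biased to male liver, was at 93.2 CPM in WT replicate 2 and 13.8 to 20.7 CPM in the other 5 libraries. Dio1, the thyroid hormone deiodinase, was at 77.3, 100.4 and 29.5 CPM in WT and 33.4, 2.15 and 3.87 CPM in AEG1 livers.

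Onecut1, a transcription factor of hepatocytes and bile duct cells, was at 17.4, 9.90 and 10.9 CPM in WT. In AEG1 livers it was at 81.3, 28.8 and 22.1 CPM (1.79 ± 0.52, DESeq2 adjusted p = 0.0412). It belongs to the bile duct markers, which had 4 of 10 members higher (median -0.07). On the MYC background Onecut1 was lower without overlap (-2.20 ± 0.48). There it was at 69.0, 35.4 and 45.4 CPM in MYC and 13.9, 9.51 and 9.15 CPM in AEG1_MYC livers. The clock repressor Per2 was at 27.3, 15.6 and 35.0 CPM in WT and 36.8, 35.3 and 80.1 CPM in AEG1 livers. Rian, an imprinted non-coding RNA of fetal liver, was at 0.466 to 1.95 CPM in WT and 5.21, 5.80 and 1.67 CPM in AEG1 livers. Jun, an immediate early factor, was at 14.0 to 25.6 CPM in WT and 26.1 to 28.1 CPM in AEG1 livers, and the stress sensor Ern1 and the stress-induced factor Ddit3 were higher than every WT library in AEG1 replicates 1 and 2 but not in replicate 3.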
